A study of Cricetulus griseus with 8 samples.

Results

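The genes described here encode the proteases that cut extracellular matrix and cell surface proteins, together with the proteins that hold those proteases in check. They were chosen by symbol alone: matrix metalloproteases (Mmp), ADAM, ADAMTS and ADAMTS-like genes, TIMP genes, serpins of clades a to i, the plasminogen activators Plat and Plau, the receptor gene Plaur, and Reck. Of 26776 named genes in the deposited table, 97 matched. No expression value was used to choose them. Of the 97, 24 had no read in any library, 33 had reads but a mean under 10 normalized counts over the 8 libraries, and 40 (41.2%) were tested.

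The phagocyte was LR73, a line of Chinese hamster fibroblasts, grown either alone (4 libraries) or with apoptotic Jurkat cells added (4 libraries). The Jurkat cells, from a T cell line of human origin, received 1500 mJ of UV-C light and then 4 h in culture before they met the phagocytes. Both groups were grown in alpha-MEM with serum, and the column names of both groups hold the letters GFP, which the labels do not explain. All phagocytes are 1 line, and although the series text calls the 4 libraries biological replicates, nothing says how the cultures were separated, so the p-values measure the spread between these libraries, which may be technical.

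Matrix metalloproteases and ADAMTS proteases are zinc enzymes that are made as inactive precursors and act in the matrix or at the cell membrane, while ADAM proteases are best known for releasing the outer parts of membrane proteins such as growth factors and adhesion receptors. TIMPs and the membrane protein Reck inhibit metalloproteases. The plasminogen activators uPA (Plau) and tPA (Plat) turn plasminogen into plasmin, a broad serine protease that also activates some metalloproteases, and serpins inhibit many serine proteases. In fibroblasts these enzymes and inhibitors set how fast collagen, fibronectin and proteoglycans are turned over.

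Between 22.7 and 29.7 M (mega) reads per library fell in named genes, and the 97 genes took 0.252% of all reads. Alone library 1 stood apart: across the tested members its median distance from the mean of the other alone libraries was 0.185 on the log2 scale, against 0.061 to 0.106 for the other alone libraries and 0.056 to 0.076 for the co-cultures. The same held across all tested genes, at 0.168 against 0.056 to 0.1 for the other alone libraries and 0.047 to 0.059 for the co-cultures. Alone library 1 was the lowest of the alone libraries in 20 of the 40 members and the highest in 11. Of the fibroblast markers listed, 18 had a row and 17 had reads, with Vim and Fn1 the most abundant, but the collagen genes Col1a1 and Col1a2 had at most 6 reads per group and Thy1 had 0. The fibroblast markers summed to 167630 to 175460 normalized counts in the alone libraries and 197170 to 199290 in the co-cultures. By limma 3 of 13 tested rose and 1 fell, where 11.7% of all tested genes were called. Most of the sum was Vim, with means of 111960 alone and 130760 in the co-cultures. Col6a1 was higher in the co-cultures too (9418 and 14056), while Sparc (7773 and 7328), Dcn (953 and 767) and Lum (29.8 and 20.8) were lower. Of 24 T cell markers, 18 had reads and 6 were at 0 in all libraries, among them Cd3d, Cd3g and Cd2. The 24 summed to 1753 to 1914 normalized counts alone and 1644 to 1703 in the co-cultures, nearly all from Tcf7, Themis, Gata3 and Lat, which the phagocytes alone also expressed. By limma 2 of the 6 tested T cell markers fell and none rose, where 5.31% of all tested genes fell. The 18 markers too low to be tested had 43 reads alone and 69 in the co-cultures, with Ptprcap at 36 and 24, Lck at 0 and 9 and Ptprc at 3 and 14. The part that Jurkat RNA played in any change below was not tested.

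With apoptotic cells, 4 of the 40 tested members rose, 3 fell and 33 did not pass the threshold, a Benjamini-Hochberg adjusted p under 0.05 over all genes tested, by limma on log2(normalized count + 1). Mmp10, Adamts6 and Adamts1 were among those that rose, and the 3 that fell were Serpinb1, Timp2 and Plat. The 7 make 17.5% of the tested members, where 11.7% of all 13494 tested genes were called, 6.36% higher and 5.31% lower. At a mean of at least 100, 6 of 27 members and 13.3% of all tested genes were called, and at 1000, 4 of 15 and 14.9%. The median log2 fold change was 0.033 among the members and 0.001 among all tested genes, and the median size of the change regardless of sign 0.125 and 0.096. The groups did not overlap in 11 members (27.5%), 7 higher and 4 lower, against 21.2% of all tested genes, 11.4% higher and 9.72% lower. The authors' deposited table gave the same 7 members, in the same directions, among 38 members with an adjusted p. The authors' log2 fold changes lay nearer 0 than those by limma for all 7, most of all for Mmp10, at 0.378 against 1.02. For Adamts6 the values were 0.423 and 0.54, so the authors' value for Mmp10 lay below theirs for Adamts6. DESeq2, run here on reads recovered from the deposited values, gave 1.08 for Mmp10 (DESeq2 adjusted p = 0.00281). The cause of the difference in size was not tested. In bulk RNA, a smaller share of cells that express a gene and less RNA per cell cannot be told apart.

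**Figure D1:**
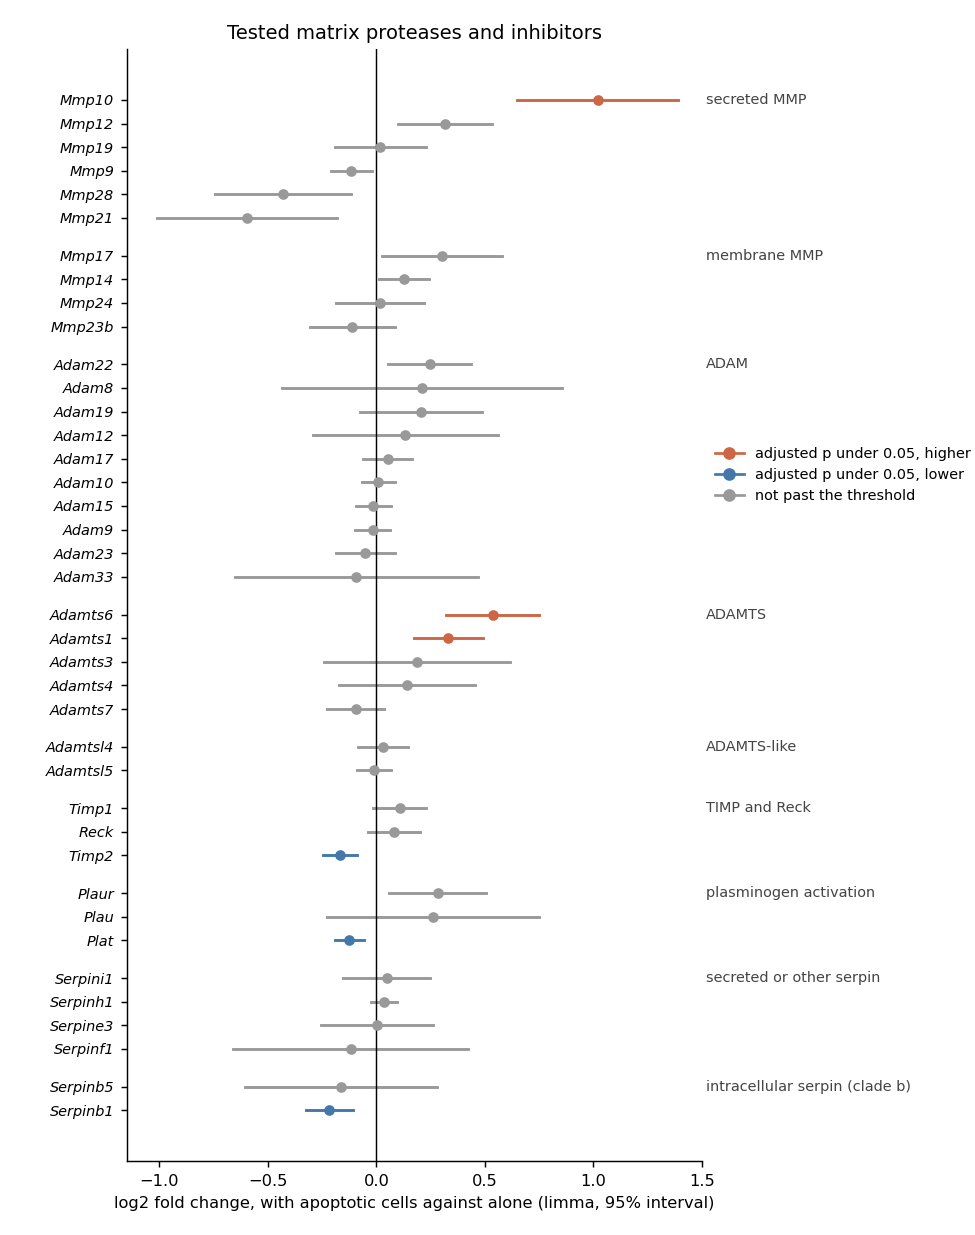
Log2 fold change, with apoptotic cells against alone, for 39 of the tested members (points) with 95% intervals from limma (lines), grouped by role and coloured by whether the adjusted p was under 0.05. Mmp10 stands farthest right at 1.02, and the intervals of 33 members are drawn in grey because they did not pass the threshold.

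Among the secreted matrix metalloproteases 1 of 6 tested members rose and none fell, where 11.7% of all tested genes were called. Mmp10, stromelysin 2, which cuts proteoglycans, laminin and fibronectin, had 14.2, 16.7, 15.2 and 17.6 normalized counts in the alone libraries and 42.5, 28.8, 31.9 and 31.3 in the co-cultures, in the order of their numbers. Every co-culture lay above every alone library, and co-culture library 1 was the highest. The means were 15.9 ± 1.49 and 33.6 ± 6.07 (SD, n = 4 per group), a 2.03-fold rise (log2 fold change 1.02, SE 0.17, 95% interval 0.65 to 1.39, limma adjusted p = 0.00384). This was the largest limma fold change of the 40 members, on 67 reads alone and 130 in the co-cultures over all libraries. It passed the threshold with each library left out in turn (adjusted p at most 0.0156).

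**Figure D2:**
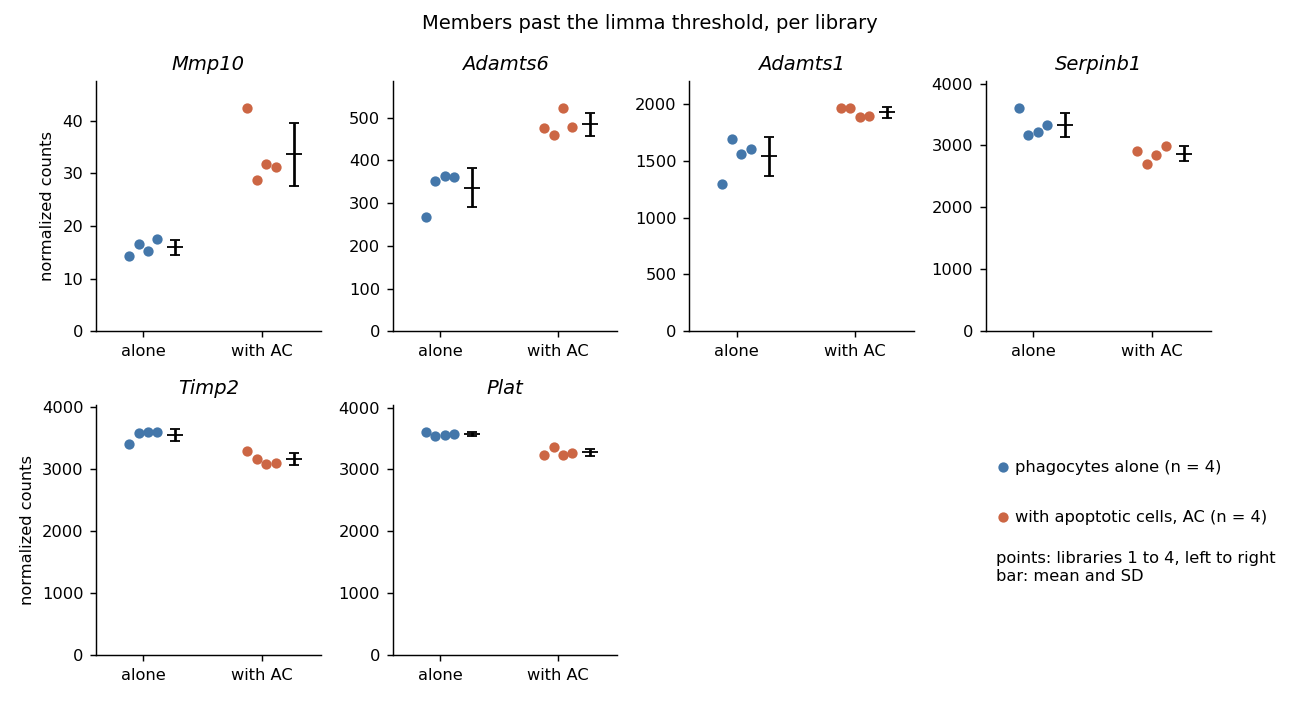
Normalized counts per library (points, libraries 1 to 4 from left to right) with each group's mean and SD (n = 4), for 6 members past the limma threshold, each axis starting at 0. The groups do not overlap in any of the 6, and the fold change is largest for Mmp10, from a mean of 15.9 to 33.6.

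In the RefSeq assembly CriGri-PICRH-1.0, used here only for the order of genes, Mmp10 lies in a run of 11 annotated genes from Mmp13 to Mmp7, of which 8 have an Mmp symbol. The neighbours gave a mixed picture. Mmp12, the macrophage elastase, had 95.9, 75.9, 83.2 and 77.6 normalized counts alone and 109.6, 105, 100.02 and 98.8 in the co-cultures. Its groups did not overlap, but the change missed the threshold (log2 fold change 0.32, SE 0.10, limma adjusted p = 0.0631). It passed without alone library 1 (0.39, adjusted p = 0.0115) and missed with any other single library left out (adjusted p up to 0.163). Mmp3, stromelysin 1, listed in the table under a LOC number and so outside the 97, stood at 46.8 ± 4.24 and 51.4 ± 5.33 (log2 fold change 0.13, SE 0.12, adjusted p = 0.526). Mmp13, a collagenase, had 0 reads alone and 7 in the co-cultures, Mmp8 had 3 and 2, and Mmp7, Mmp20 and Mmp27 had none, which over 201.2 M reads allows up to 3 reads. Stromelysin genes resemble each other, so reads could be split between Mmp3, Mmp10 and LOC100759664, an unnamed gene between them with 460 reads alone and 379 in the co-cultures.

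Mmp9, gelatinase B, which degrades denatured collagen and basement membrane collagen, held most of the reads of the secreted metalloproteases (85.4% of their normalized counts). It had 2730, 2617, 2610 and 2429 normalized counts alone and 2411, 2455, 2293 and 2427 in the co-cultures. The groups overlapped only through alone library 4, which lay below co-culture library 2. The limma log2 fold change, -0.12 (SE 0.04, adjusted p = 0.111), missed the threshold and passed it without alone library 1 (-0.09, adjusted p = 0.0461). Mmp28, epilysin, had 87.4, 141.7, 118.7 and 122.0 alone and 83.9, 78.5, 83.5 and 97.8 in the co-cultures. Here alone library 1 sat among the co-cultures while the other alone libraries lay above them all. The log2 fold change was -0.43 (SE 0.14, adjusted p = 0.0768) with all libraries and -0.56 (adjusted p = 0.000595) without alone library 1. With any other single library left out it missed the threshold (adjusted p up to 0.187).

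Mmp21 missed the threshold as well, with 32.3, 36.7, 27.4 and 27.9 normalized counts alone and 21.7, 14.4, 21.98 and 23.5 in the co-cultures (log2 fold change -0.60, SE 0.19, limma adjusted p = 0.0658). Its groups did not overlap. Its annotated span overlaps that of Edrf1, which had a mean of 896.9 against 25.7 for Mmp21. Only gene starts and ends were compared, not exons, and the sources used here do not give the strand setting of the counting. Whether reads of Edrf1 entered the count of Mmp21 was not tested. The same limit holds for other members, as the spans of 18 tested members overlap that of another annotated gene. Among them are Adamtsl4 with Kat6a (means 624.1 and 2927) and Adamts3 with Chpt1 (46.8 and 910.9). Mmp19 stood at 177 ± 17.4 and 179 ± 16.4 (log2 fold change 0.02, 95% interval -0.19 to 0.23), a sign that turned without the first library of either group. Mmp2, gelatinase A, the usual fibroblast gelatinase, had 1 read in all 8 libraries, and Mmp1 had none.

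None of the 4 tested membrane-bound metalloproteases passed the threshold. By limma 2 of the 4, Mmp14 and Mmp17, had an unadjusted p under 0.05, as did 37.5% of all tested members and 26.5% of all tested genes, and edgeR and DESeq2 called none of the 4 either. Mmp14, MT1-MMP, which cuts fibrillar collagen at the cell surface and activates pro-MMP2, had 1978, 2289, 2309 and 2350 normalized counts alone and 2447, 2453, 2435 and 2385 in the co-cultures. Every co-culture lay above every alone library, yet the gap between alone library 4 and co-culture library 4 was small next to the drop of alone library 1. The log2 fold change was 0.13 (SE 0.05, 95% interval 0.01 to 0.24, limma adjusted p = 0.156). Mmp17, the GPI-anchored MT4-MMP, had 64.6, 52.5, 61.9 and 50.7 alone and 76.0, 64.1, 80.2 and 63.6 in the co-cultures, where alone library 1 overlapped the lower co-cultures (log2 fold change 0.30, SE 0.13, adjusted p = 0.155). Mmp24 (MT5-MMP) and Mmp23b stood at log2 fold changes of 0.02 and -0.11, and the sign for Mmp24 turned when either alone library 2 or co-culture library 4 was left out.

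Of the 10 tested ADAM genes none passed the threshold by limma, edgeR or DESeq2 (DESeq2 gave an adjusted p for 8 of them), and 1 of the 10, Adam22, had an unadjusted limma p under 0.05, against 26.5% of all tested genes. The main sheddases had narrow intervals, although the annotated span of Adam9 overlaps that of LOC100772072 (means 3005 and 1273). Adam10, which releases the outer parts of Notch, cadherins and CD44, had 3529, 3773, 3746 and 3781 normalized counts alone and 3696, 3701, 3838 and 3677 in the co-cultures. The groups overlapped, although alone library 1 lay below every co-culture and co-culture library 3 above every alone library. The 95% interval of the log2 fold change ran from -0.07 to 0.08, with a sign that turned when either alone library 1 or co-culture library 3 was left out. Adam17, the TNF and EGF ligand sheddase, had 1461, 1719, 1540 and 1610 alone and 1614, 1665, 1692 and 1584 in the co-cultures (log2 fold change 0.05, 95% interval -0.06 to 0.17). The meltrin gene Adam9 stood at 3024 ± 120.1 and 2986 ± 54.0 (interval -0.10 to 0.06, with a sign that turned without alone library 4), and Adam15 at 2504 ± 66.9 and 2480 ± 83.2 (interval -0.10 to 0.07, with a sign that turned without alone library 1). Of these 4 genes Adam17 had the widest interval.

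Adam22, an ADAM without protease activity that acts as a receptor for LGI proteins, had 1147, 1562, 1526 and 1449 normalized counts alone and 1770, 1605, 1690 and 1627 in the co-cultures. The groups did not overlap. The log2 fold change was 0.24 (SE 0.09, limma adjusted p = 0.0981) with all libraries and 0.15 (adjusted p = 0.00578) without alone library 1. With any other single library left out it missed the threshold (adjusted p up to 0.234). Adam19, meltrin beta, showed the same low alone library 1, with 543, 876, 749 and 847 alone and 860, 848, 910 and 806 in the co-cultures (0.21, SE 0.13, adjusted p = 0.33, and adjusted p = 0.459 without alone library 1). Adam12, another meltrin, ran from 64.6 to 115.9 alone and from 74.4 to 119.8 in the co-cultures, and its log2 fold change of 0.13 became -0.02 without alone library 1. Adam23, like Adam22 without protease activity, was steady at 177 ± 3.84 and 170.4 ± 4.35. Adam8 and Adam33 had means near the filter, at 10.7 and 11.9 normalized counts over all libraries, with 95% intervals reaching more than 0.5 to either side of the estimate, and a sign that turned without alone library 3 for Adam8 and without co-culture library 1 or 2 for Adam33.

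Among the ADAMTS proteases, 2 of 5 tested members rose and none fell, where 11.7% of all tested genes were called. Adamts6, a member of this family of secreted proteases with thrombospondin repeats, had 268, 353, 363 and 361 normalized counts alone and 476, 459, 523 and 479 in the co-cultures. The lowest co-culture was well above the highest alone library, and alone library 1 was the lowest of all. The means were 336 ± 45.8 and 484 ± 27.4 (SD, n = 4 per group), a 1.45-fold rise (log2 fold change 0.54, SE 0.10, 95% interval 0.32 to 0.75, limma adjusted p = 0.0061). Without alone library 1 the log2 fold change was 0.43 and the adjusted p was 4.95e-06, and no left-out library raised it above 0.0288.

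Adamts1, which cuts the proteoglycans aggrecan and versican, had 1293, 1694, 1562 and 1607 normalized counts alone and 1966, 1967, 1885 and 1891 in the co-cultures. The co-cultures lay close together and above all alone libraries. Means of 1539 ± 173 and 1927 ± 45.5 gave a 1.26-fold rise (log2 fold change 0.33, SE 0.07, limma adjusted p = 0.0154). The call was lost without co-culture library 1 (adjusted p = 0.0556) or 2 (0.0525), with log2 fold changes of 0.32 in both cases. Of the rest of the family, Adamts7, which cuts the cartilage protein COMP, had a log2 fold change of -0.10 (SE 0.06, adjusted p = 0.338) that became -0.14 (adjusted p = 0.0254) without alone library 1. Adamts3, a procollagen N-proteinase, and Adamts4, an aggrecanase, had means of 46.8 and 67.6 normalized counts and log2 fold changes of 0.19 and 0.14, with SEs of 0.19 and 0.14. The ADAMTS-like genes Adamtsl4 and Adamtsl5, which lack the protease domain, stood at 0.03 and -0.01, the second with a sign that turned without alone library 2.

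Of the metalloprotease inhibitors, 1 of 3 tested fell and none rose, where 11.7% of all tested genes were called. Timp2, which inhibits metalloproteases and also tethers pro-MMP2 to MT1-MMP, had 3405, 3581, 3603 and 3608 normalized counts alone and 3298, 3157, 3077 and 3107 in the co-cultures. All co-cultures lay below all alone libraries, and alone library 1 was the alone library nearest to them. The fall from 3549 ± 96.8 to 3160 ± 97.7 (SD, n = 4 per group) was 11.0% (log2 fold change -0.17, SE 0.04, limma adjusted p = 0.0137). The call was lost narrowly without alone library 3 (adjusted p = 0.052) or co-culture library 3 (0.0521) or 4 (0.0516).

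Timp1, which forms complexes with MMP9 and is induced in many fibroblasts by growth factors, had 1997, 1679, 1755 and 1776 normalized counts alone and 1995, 1879, 1865 and 2014 in the co-cultures. Alone library 1 was as high as the highest co-cultures, and the other alone libraries lay below all of them. The log2 fold change was 0.11 (SE 0.05, limma adjusted p = 0.241) with all libraries and 0.16 (adjusted p = 0.00154) without alone library 1. With any other single library left out it missed the threshold (adjusted p up to 0.426). Timp1 overlaps Syn1 in the assembly, which had a mean of 9.67 normalized counts. Reck, the membrane-anchored inhibitor, stood at 416 ± 14.3 and 440.3 ± 22.2 (log2 fold change 0.08, 95% interval -0.04 to 0.20). Timp3 was listed at 0 in all libraries and Timp4 had 1 read per group.

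Of the plasminogen activator and receptor genes, all 3 tested, Plat fell, while Plau and its receptor gene Plaur did not pass the threshold. Of all tested genes 11.7% were called. Plat, tissue plasminogen activator, had 3614, 3536, 3560 and 3571 normalized counts alone and 3238, 3357, 3242 and 3269 in the co-cultures. The libraries of each group lay close together, and the highest co-culture was below the lowest alone library. The fall from 3570 ± 32.7 to 3277 ± 55.3 (SD, n = 4 per group) was 8.23% (log2 fold change -0.12, SE 0.03, limma adjusted p = 0.0226). Leaving out alone library 3 (adjusted p = 0.0674) or 4 (0.057), or 1 of co-culture libraries 1 (0.081), 3 (0.0703) and 4 (0.0704), ended the call, while the log2 fold change stayed between -0.14 and -0.12 with any library left out.

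Plaur, the urokinase receptor uPAR, had 374, 300.1, 266 and 266 normalized counts alone and 367, 359, 374 and 352 in the co-cultures. Alone library 1 lay just above the highest co-culture and the other alone libraries well below it. With all libraries the log2 fold change was 0.28 (SE 0.10, limma adjusted p = 0.101), and without alone library 1 it was 0.39 (adjusted p = 7.8e-05). In that fit 26.0% of all tested genes were called. The change in Plaur missed the threshold with any other single library left out (adjusted p 0.138 to 0.237). Plau, urokinase, was low, at 18.6 to 30.4 alone and 20.9 to 36.2 in the co-cultures (log2 fold change 0.26, SE 0.22, adjusted p = 0.478).

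Of the clade b serpins, 1 of 2 tested fell and none rose, where 11.7% of all tested genes were called. Serpinb1, an intracellular inhibitor of neutrophil elastase and related proteases, had 3608, 3162, 3220 and 3330 normalized counts alone and 2907, 2705, 2851 and 2994 in the co-cultures. The groups did not overlap, and alone library 1 was the highest. The fall from 3330.3 ± 198 to 2864 ± 121 (SD, n = 4 per group) was 13.9% (log2 fold change -0.22, SE 0.05, limma adjusted p = 0.0174). The call was lost without co-culture library 1 (adjusted p = 0.0503), 2 (0.0597) or 3 (0.0554).

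Serpinh1, the collagen chaperone HSP47, which is a serpin without inhibitor activity, was by far the most read member, with 38.1% of the normalized counts of all 97 genes. It had 23663, 23497, 23542 and 24041 normalized counts alone and 24453, 24385, 23691 and 24510 in the co-cultures. The groups overlapped through co-culture library 3, and the 95% interval of the log2 fold change ran from -0.02 to 0.09 (limma adjusted p = 0.443). Serpinb5 (maspin), the neuroserpin gene Serpini1, Serpine3 and Serpinf1 (PEDF) had log2 fold changes of -0.16, 0.05, 0.002 and -0.12 and SEs of 0.20, 0.09, 0.12 and 0.24. The sign for Serpine3 turned when any of alone libraries 1 and 4 and co-culture libraries 1 and 2 was left out, under TMM scaling and in the count tests, and that for Serpinf1 without co-culture library 2, in which it had 12.2 normalized counts against 25.3 to 26.4 in the other co-cultures. Serpine3 overlaps Ints6, which rose (0.27, adjusted p = 0.0309).

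**Figure D3:**
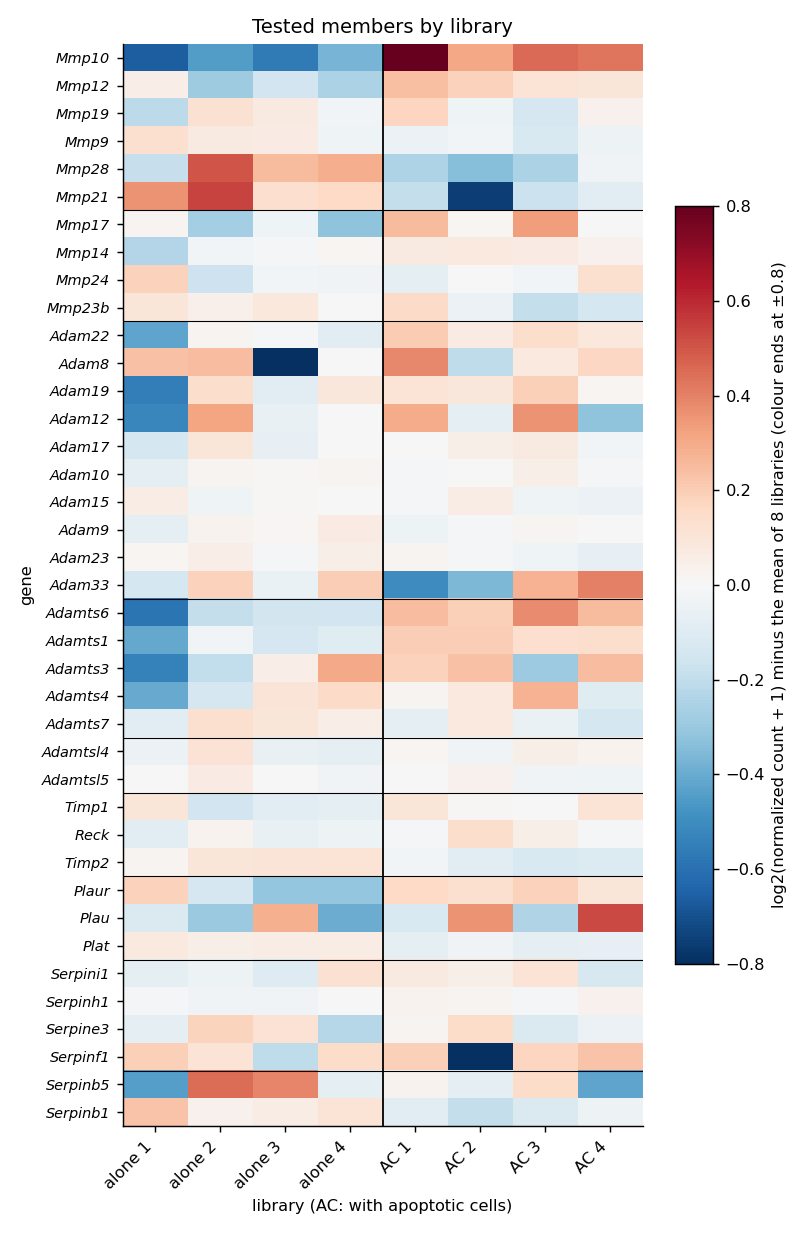
Log2(normalized count + 1) of 39 tested members (rows, grouped by role) in each library (columns), minus the mean of that gene over the 8 libraries, with the colour scale ending at ±0.8. Alone library 1 is the lowest alone library in 20 of the 40 members, and Mmp10 and Adamts6 change colour between the groups.

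Ratios of a protease to its inhibitor within a library do not depend on how libraries are scaled, although gene length keeps the ratio itself from being a ratio of molecules. Such ratios are given for 2 pairs picked after the values were seen, for description and without a test. Mmp14 to Timp2 was 0.581, 0.639, 0.641 and 0.651 alone and 0.742, 0.777, 0.791 and 0.768 in the co-cultures, so that every co-culture lay above every alone library. That separation was fixed in advance, since Mmp14 was higher and Timp2 lower in every co-culture than in any alone library. Mmp9 to Timp1 was 1.37, 1.56, 1.49 and 1.37 alone and 1.21, 1.31, 1.23 and 1.21 in the co-cultures. Here every co-culture lay below every alone library, at a mean of 1.24 against 1.45, or 1.47 without alone library 1.

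**Figure D4:**
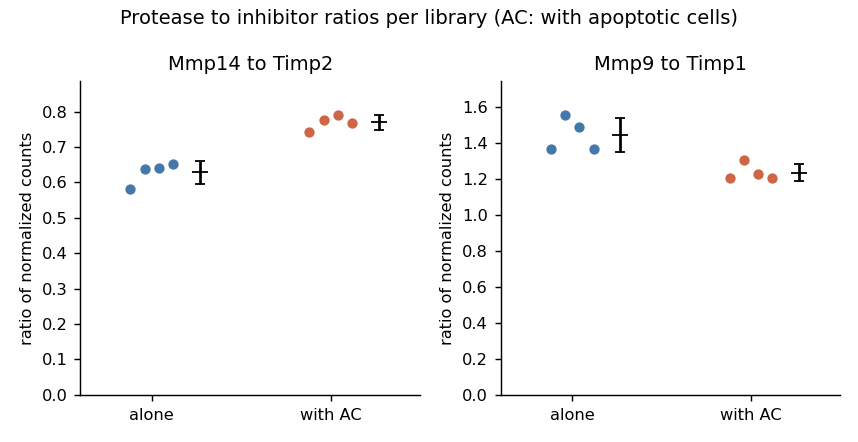
Ratio of normalized counts of a protease gene to an inhibitor gene in each library (points, blue for alone and orange for co-cultures, libraries 1 to 4 from left to right) with each group's mean and SD (n = 4) and axes from 0. Mmp14 to Timp2 moves from a mean of 0.628 to 0.769, and Mmp9 to Timp1 from 1.45 to 1.24.

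Other genes of matrix turnover were taken from a list by role: further matrix and membrane proteases, convertases, cathepsins, their inhibitors and receptors, ADAM regulators, matrix substrates and shed substrates. Of 92 listed, 85 were in the table and 53 were tested. By limma 9 rose, 1 fell and 43 did not pass, 18.9% called against 11.7% of all tested genes, and the groups did not overlap in 19 (35.8%, against 21.2%). A mean of at least 1000 was reached by 39 of the 53, and of all tested genes at that level 14.9% were called. Thbs1, the matricellular protein thrombospondin 1, stood at 4483 ± 396 normalized counts alone and rose to 6804 ± 96.3 (mean ± SD of 4 libraries, limma log2 fold change 0.61, SE 0.06, adjusted p = 0.000148). The hyaluronan receptor Cd44, a substrate of ADAM10 and MT1-MMP, rose from 20645 ± 496 to 25024 ± 355 (0.28, SE 0.03). Ereg, the EGF receptor ligand epiregulin, which ADAM17 releases, rose by 0.35 (SE 0.05) on the log2 scale, and the fibronectin receptor subunit Itga5 by 0.21 (SE 0.04). The other 5 that rose, named after their values were seen, were the HGF receptor Met (0.33), the ADAM10 partner Tspan5 (0.26), the syndecans Sdc1 (0.22) and Sdc4 (0.14), and Eno1, a glycolytic enzyme that also binds plasminogen at the cell surface (0.13).

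Pcolce, which enhances the cleavage of procollagen by BMP1, was the 1 companion gene that fell, with 8352 ± 366 normalized counts alone and 7628 ± 161.3 in the co-cultures (limma log2 fold change -0.13, SE 0.04, adjusted p = 0.0437). That call held without alone library 1 or 2 and was lost on leaving out any of the other 6 libraries (adjusted p 0.0813 to 0.13). Thbs1, Cd44, Ereg, Itga5 and Met kept their calls with each library left out. The count of 9 became 5 without co-culture library 1 (with Sdc1, Eno1, Tspan5 and Sdc4 at adjusted p = 0.0533, 0.0657, 0.0751 and 0.0747) and 6 without co-culture library 4, where 5.72% and 6.62% of all tested genes were called. Without alone library 1, 12 rose and 9 fell, with 26.0% of all tested genes called.

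The count of members called moved with single libraries too. Without alone library 1, 8 members rose and 6 fell, 35% of 40 tested, where 26.0% of all tested genes were called, and all 7 members called with 8 libraries were among the 14. The 7 added were Adam22, Mmp12, Plaur and Timp1, which rose, and Adamts7, Mmp28 and Mmp9, which fell. Each of these 7 missed the threshold with any other single library left out. Leaving out co-culture library 1 left 2 rises and 1 fall, co-culture library 2 left 2 and 2, co-culture library 3 left 3 and 0, and co-culture library 4 left 3 and 1. In the same order 5.72%, 6.46%, 6.12% and 6.62% of all tested genes were called, so that calls were fewer across the whole table and not in the members alone. Dropping alone library 2 gave 3 rises and 3 falls (9.87% of all tested genes called), dropping alone library 3 gave 4 and 1 (6.54%), and dropping alone library 4 gave 4 and 2 (8.19%). Mmp10 and Adamts6 were past the threshold in all 8 of these fits.

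**Figure D5:**
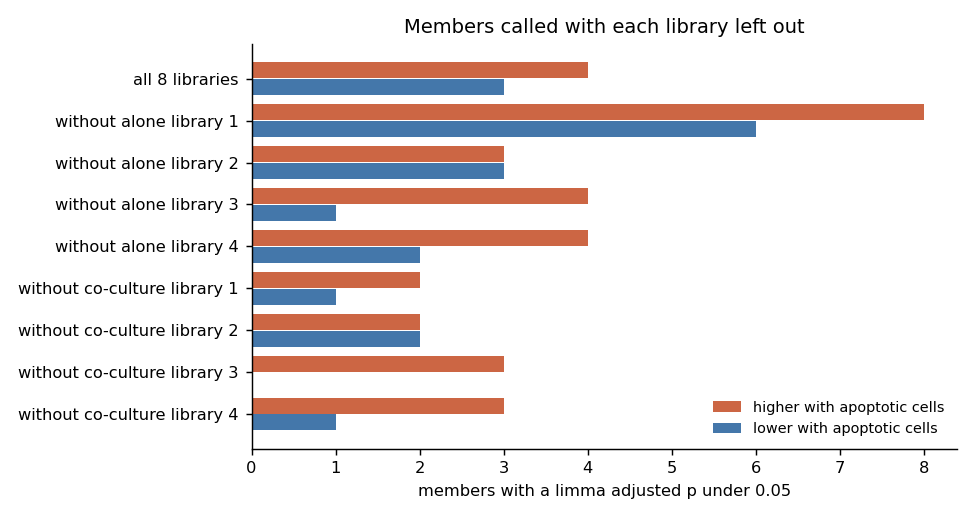
Number of members (bars from 0) with a limma adjusted p under 0.05 that were higher (orange) or lower (blue) with apoptotic cells, with all 8 libraries and after leaving out 1 library at a time. The bars stand at 4 and 3 for all libraries, at 8 and 6 when alone library 1 is dropped, and at 3 and 0 when co-culture library 3 is dropped.

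The 57 members that were not tested lay at the floor of detection. The 33 with reads had means of at most 8.80 normalized counts, the value of Adamtsl1. Among them Mmp15 (MT2-MMP) had 18 reads alone and 38 in the co-cultures, Adamts5, the main cartilage aggrecanase, 22 and 11, Adamts15 21 and 14, Serping1, the C1 inhibitor, 21 and 18, and Serpine2, nexin-1, 3 and 2. Adamtsl2 had 7 reads alone and 0 in the co-cultures, and passed the limma threshold as lower only when no filter on low values was applied. No read was seen for 24 members, among them Mmp1, Mmp7, Timp3, Adamts2, Adamts9 and 7 clade a serpins, a clade named for the antitrypsin gene. At this depth a gene without reads may still have had up to 3 reads per 201.2 M.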

How the data were processed

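RNA-seq gene values from 8 libraries were analysed. Per the submitters' processing notes FastQC, STAR, featureCounts and DESeq2 were used, but no source used here gives versions, genome build or strand setting. The authors deposited 1 signal per gene and library, which the values show to be counts divided by 1 size factor per library: 100% were whole multiples of 1 read within 0.01 reads. The authors also deposited log2 fold changes, a test score, p-values and mean signal, per the file headers. Of these, only members' calls and log2 fold changes are cited, with values for Mmp10 and Adamts6. Columns were matched to labels by number and the letters AC. A row without a gene name (0.14 to 0.176% of the signal) was left out.

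Genes averaging 10 normalized counts or more were tested with limma 3.58.1 in R 4.3.3 (trend, log2(value + 1), group as the only term), with Benjamini-Hochberg adjustment over all 13494, and the step was tested on simulated data. A fold change on this scale understates changes of low genes. Counting reads recovered from the values, edgeR 4.0.16 called 1564 genes and DESeq2 1.42.0 called 1595. Alternatives were other scalings, pseudocounts, filters, library weights, a replicate block, both count tests and each library left out. Members, lists and alternatives were chosen with earlier results of these data known. Of the members, 1 is counted but not reported here. Genes named were the other called members, the 6 with the largest change at a mean of at least 100, a set picked by role and, of companion genes, up to 4 per direction. Other members are named after their values were seen. RefSeq symbols matched 91 of 97 members, and no sequences were used.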

Additional observations from a re-analysis of the deposited data

Results flagged for a closer look

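Each group of 4 libraries was examined for the 40 members and for the 10 companion genes past the limma threshold. The gap between 1 library and the nearest other was held against the 95% critical value of Dixon's test. Chance alone reaches that value in about 1 group in 20. It was passed in 9 of the members' 80 groups. In all, 1 library lay that far out in 12 of 100 groups. Alone library 1 was that library in 7 of them: it was lowest for Adam10 (3529 normalized counts, others 3746 to 3781), Adamts6 (267.8, others 352.7 to 363.3), Mmp14 (1978, others 2289 to 2350), Timp2 (3405, others 3581 to 3608), Thbs1 (3891, others 4652 to 4731) and Tspan5 (1064, others 1264 to 1292), and it was highest for Ereg (996.1, others 866.7 to 882.2). Alone library 2 was highest for Adamtsl4 (676.1, others 593.6 to 603.9). Co-culture library 3 was highest for Adam10 (3838, others 3677 to 3701) and lowest for Adamts3 (37.37, others 52.34 to 54.79) and Serpinh1 (23690, others 24380 to 24510). Co-culture library 2 was lowest for Serpinf1 (12.16, others 25.28 to 26.42).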

How the results depend on the processing

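Values for the tested members, the called companion genes and Mmp3 were recomputed under each alternative: 818 kept their direction and side of the threshold, 46 lost a call, 14 gained one and 24 changed sign. Pseudocounts of 0.5 and 5, TMM scaling and the edgeR and DESeq2 tests left 4 members called higher and 3 lower. With library weights 8 members were higher, 6 lower, 8 companion genes lower and 3478 genes called in all. Companion genes lower came to 2 at a mean of at least 100, with edgeR at median-of-ratios scaling and with DESeq2, and to 0 with no filter. With no filter 4 members were lower, the added one being Adamtsl2, and 1375 genes were called in all. Same-numbered libraries did not deviate together (4 pairs, r from -0.0898 to 0.0682; 2 of 8 libraries correlated best with their own number). With a replicate block 898 genes were called, 1 member was lower and 0 companion genes were lower, and Plat and Timp2 missed the threshold (limma adjusted p = 0.0841 and 0.0589).

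With each library left out in turn, 772 to 3505 genes were called, 2 to 8 members were higher and 0 to 6 lower, and 5 to 12 companion genes were higher and 0 to 9 lower. The log2 fold changes that changed sign in these fits ran from -0.0151 to 0.0182 for Adam10, -0.0185 to 0.2616 for Adam12, -0.0366 to 0.0027 for Adam15, -0.2413 to 0.06 for Adam33, -0.0545 to 0.3297 for Adam8, -0.0446 to 0.0009 for Adam9, -0.026 to 0.0074 for Adamtsl5, -0.047 to 0.0674 for Mmp19, -0.037 to 0.0814 for Mmp24, -0.0742 to 0.0611 for Serpine3 and -0.2149 to 0.1379 for Serpinf1. With library weights Adam10 came to -0.0147 and Mmp19 to -0.0109. Serpine3 came to -0.0045 under TMM scaling, -0.0119 and -0.0112 with edgeR under TMM and median-of-ratios scaling, and -0.0089 with DESeq2. Except where fewer libraries or genes entered by construction, the cause was not tested. Depth limits the 57 untested members and those near the filter, such as Mmp10, Adam8 and Adam33.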
